A study of Mus musculus with 16 samples.

Results

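The genes described here carry the TGF-beta signal in the colonic epithelium: the ligand gene *Tgfb1*, the receptor genes *Tgfbr1* and *Tgfbr2*, the signal transducers *Smad2*, *Smad3* and *Smad4*, the inhibitor *Smad7* and the target gene *Id1*. They were taken by gene symbol, and all 8 were listed among the 22396 gene symbols measured. RNA was sequenced from EpCAM+ cells sorted from the distal colon of 16 mice, 1 library per mouse, to learn what loss of TNFR2 (the TNF receptor encoded by *Tnfrsf1b*) in the epithelium changes before and after injury by dextran sulfate sodium (DSS). EpCAM is a surface protein of epithelial cells, and DSS is a polymer that damages the colonic lining when mice drink it. All mice carried *Tnfrsf1b* alleles with exon 2 between loxP sites (Tnfr2-f/f) and were 8 weeks old by the study's methods. The control mice had no Cre, and the mice labelled knockout, called Vil1::Cre mice here, also carried a Cre transgene under the villin promoter, which is active in intestinal epithelial cells. The groups were 4 controls and 5 Vil1::Cre mice given water, and 3 controls and 4 Vil1::Cre mice given DSS. By the labels DSS was 3% for 6 days and every mouse was dissected on day 12, while the methods give a somewhat higher concentration and take the uninjured mice at the start. By the methods, the cells of the DSS-treated mice came from injured regions. All 7 DSS-treated mice were female, in cages c (2 mice) and d (5 mice). The water-treated mice were 4 males in cage a and 5 females in cage b. No cage held both treatments, so treatment and cage cannot be told apart.

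TGF-beta is secreted as a latent dimer and acts after it has been released from its latency peptide. The active ligand binds the receptor TGFBR2, which recruits and phosphorylates TGFBR1, and TGFBR1 phosphorylates SMAD2 and SMAD3. These pair with SMAD4, the partner that the BMP branch of the family uses as well, and enter the nucleus. SMAD7 is a target of the signal that feeds back on the receptors, and ID1, a helix-loop-helix protein without a DNA-binding domain, is a target of BMP signals above all. In the intestine, TGF-beta restrains the growth of epithelial cells, and BMP signals favour differentiation along the crypt axis. Signalling runs through phosphorylation of the SMAD proteins, which RNA levels do not show.

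All 8 genes are protein-coding. Positions are those of GENCODE M21 on GRCm38. *Tgfb1* (ENSMUSG00000002603) lies on the plus strand at chr7:25687002-25705077, *Tgfbr1* (ENSMUSG00000007613) on the plus strand at chr4:47353222-47414931 and *Tgfbr2* (ENSMUSG00000032440) on the minus strand at chr9:116084293-116175360. *Smad3* (ENSMUSG00000032402) lies on the minus strand at chr9:63646767-63757994 and *Id1* (ENSMUSG00000042745) on the plus strand at chr2:152736251-152737410. *Smad2* (ENSMUSG00000024563, plus strand, chr18:76241580-76310963), *Smad7* (ENSMUSG00000025880, plus strand, chr18:75367529-75395935) and *Smad4* (ENSMUSG00000024515, minus strand, chr18:73639009-73703780) share chromosome 18. The tables list principal transcripts only, which were 2 each for *Smad2*, *Smad4* and *Smad7* and 1 for each of the other members, and a gene's level is their sum.

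Levels are given in TPM, a transcript's share of the library corrected for its length. The DSS-treated and water-treated mice were scaled apart from each other. As deposited, the median gene was higher after DSS by 0.32 on the log2 scale in the controls, and after 1 rescaling of all 16 mice by 0.01. Levels across the treatments are in rescaled TPM, no test was run between them, and they are described by whether the mice overlap. Among the 11207 genes that averaged 1 TPM or more, the DSS-treated controls lay below all water-treated controls for 14.0% and above them for 10.6%, and these shares were 8.24% and 30.9% as deposited. No 2 mice had identical values, and the correlation between mice of a group lay between 0.854 and 0.957. Read depth is unknown from TPM. The authors' mean of log counts corresponds to 41.2 estimated reads for *Tgfb1* in the DSS-treated mice and 105 in the water-treated mice, and to 1233 and 236 for the main transcript of *Smad4*. For *Smad3*, whose rescaled TPM was close to level, it corresponds to 291 and 104. These estimated reads come from tables scaled apart and do not compare levels between the treatments. *Tnfrsf1b*, the targeted gene, was not lower in the Vil1::Cre libraries after DSS (16.5 ± 4.95 TPM in 3 controls and 18.4 ± 6.02 in 4 Vil1::Cre mice, SD, with a limma log2 fold change of 0.14 and adjusted p = 1.00). In water it had 13.9 ± 2.06 (n = 4) and 11.8 ± 2.30 (n = 5, log2 fold change −0.23, adjusted p = 0.865). A level summed over the whole transcript does not resolve the deleted exon, and the libraries are grouped by their labels. For mice of this genotype the paper reports less TNFR2 on EpCAM+ cells by flow cytometry, and its loss by qPCR of sorted cells.

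In the uninjured controls *Id1* was by far the most abundant member, at 222 ± 49.9 rescaled TPM (SD, n = 4), followed by *Smad4* at 32.8 ± 2.92. Below them *Tgfbr2* (20.4 ± 1.66) and *Tgfb1* (19.6 ± 1.94) were level with each other, then came *Smad2* (16.3 ± 0.98) and *Smad7* (15.0 ± 3.15), and *Tgfbr1* (9.96 ± 2.39) and *Smad3* (8.24 ± 1.02) were the lowest. *Id1* and *Smad4* stood clear of the next member in all 4 mice, while every other neighbour in this order overlapped. After DSS the order differed at both ends. In the DSS-treated controls *Id1* (94.7 ± 52.6, n = 3) overlapped *Smad4* (54.9 ± 12.1), and *Tgfb1* was last at 2.84 ± 1.14, below every other member in each mouse. Within a library, *Tgfb1* stood on average at percentile 74.1 of the genes in uninjured controls and at percentile 26.1 in the DSS-treated controls. *Smad4* stood at 83.9 and 91.2.

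**Figure D1:**
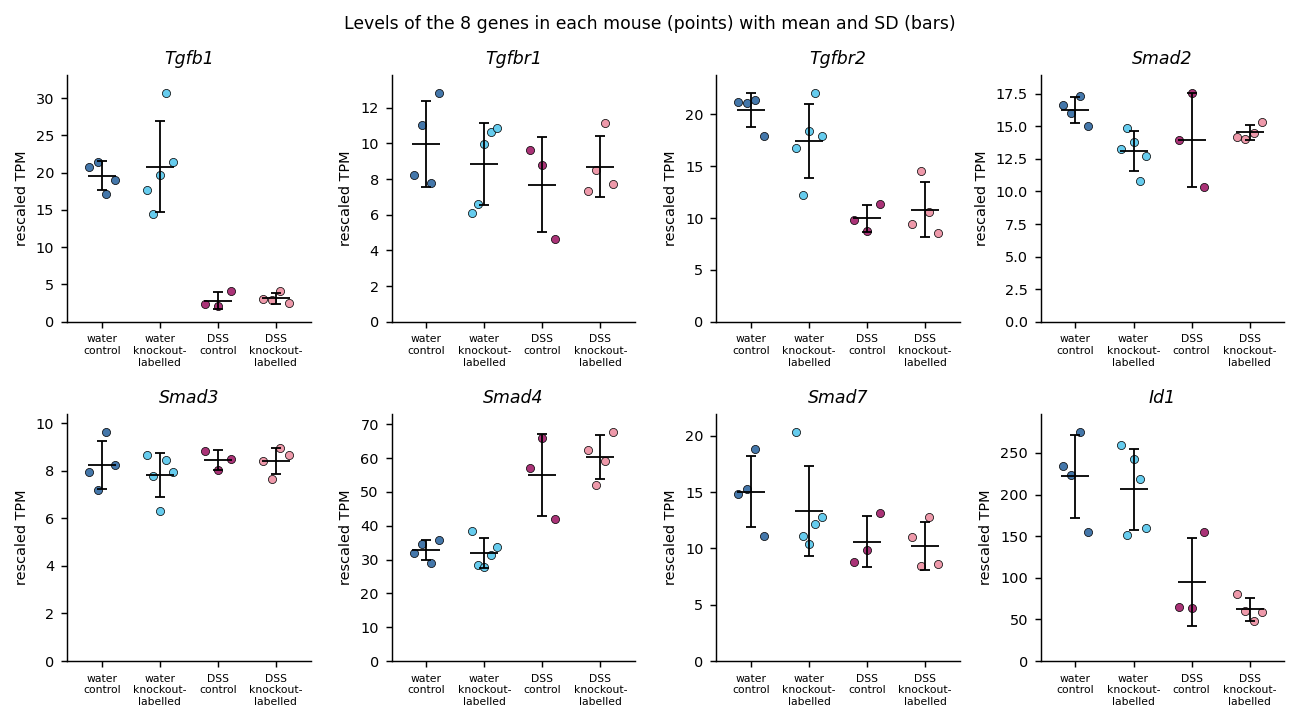
Rescaled TPM (vertical axes, from 0) of the 8 genes in each of 16 mice, by group; points are mice and bars the mean and SD. *Tgfb1* was lower and *Smad4* higher in all 7 DSS-treated mice than in any of the 9 water-treated mice, and 1 DSS-treated control, at 155, reached the range of the water-treated mice for *Id1*.

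*Tgfb1*, the ligand gene, showed the widest gap of the 8. It had 20.7, 21.5, 17.1 and 19.0 rescaled TPM in the uninjured controls and 2.33, 2.04 and 4.14 in the DSS-treated controls. The Vil1::Cre mice had 17.7, 14.5, 19.6, 30.7 and 21.4 in water and 3.01, 2.91, 4.18 and 2.48 after DSS. Every DSS-treated mouse lay below every water-treated mouse in both genotypes. The mean was 6.90-fold lower in the controls (log2 difference −2.46, pooled SD 0.28) and 6.61-fold lower in Vil1::Cre mice (−2.37, pooled SD 0.33). Over all mice the DSS-treated mice lay wholly below the water-treated mice for 7.04% of genes, and a difference below that of *Tgfb1* was found for 3.35% of genes. With females alone, a choice added after the values were seen, the mean was 7.45-fold lower, again without overlap, where 10.8% of genes were lower and 7.08% higher without overlap.

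Leukocytes express *Tgfb1* too, and their genes differed in the same direction. Of 14 leukocyte markers, 9 were lower in all 7 DSS-treated mice than in all 9 water-treated mice and 0 were higher. The shares of all genes were 7.04% and 4.49%. The summed level of the 14 markers was between 779 and 1570 rescaled TPM in the water-treated mice and between 16.6 and 41.3 in the DSS-treated mice. *Ptprc*, the pan-leukocyte gene of CD45, was at 8.14 to 31.9 in water and at 0 to 4.13 after DSS. *Lyz2*, a gene of macrophages and granulocytes, was at 513 to 1171 and at 9.02 to 26.5. *Cd8a*, of cytotoxic T cells, was at 0 in all 7 DSS-treated mice and in 7 of 9 water-treated mice. Of 8 plasma cell markers, 4 were lower in all DSS-treated mice and 0 were higher, beside the same 7.04% and 4.49% of all genes. The summed level of the 8 was between 2942 and 162297 rescaled TPM in water and between 163 and 3479 after DSS. The 9 epithelial markers, *Epcam* and *Vil1* among them, had a summed level between 6773 and 9355 in water and between 5248 and 8211 after DSS, with 0 of 9 separated. With group means removed, the Pearson r of *Tgfb1* with the leukocyte markers was 0.53 over 16 mice. With markers of endothelial cells it was 0.55, and with those of fibroblasts 0.43. The part of leukocytes in the level of *Tgfb1* was not tested, and in bulk RNA fewer cells of a type and less RNA per cell cannot be told apart.

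**Figure D2:**
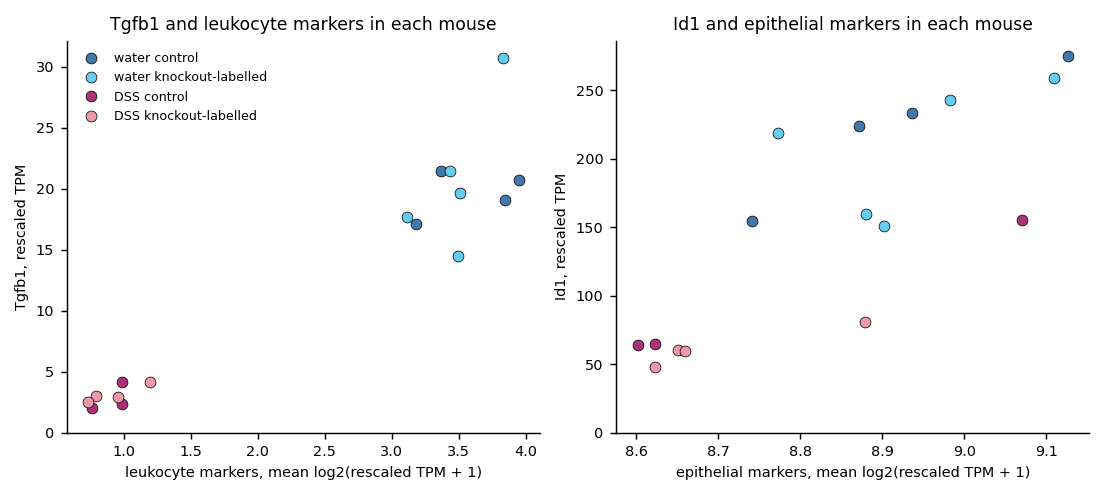
Left, *Tgfb1* (rescaled TPM) against the mean log2(rescaled TPM + 1) of 14 leukocyte markers; right, *Id1* against the mean of 9 epithelial markers, with 1 point per mouse and colour for the group. Water-treated mice lie at 3.11 or above and DSS-treated mice at 1.20 or below on the leukocyte axis, and the DSS-treated control with the highest epithelial level (9.07) is the one with 155 rescaled TPM of *Id1*.

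Of the receptors, *Tgfbr2*, which binds the ligand, was lower after DSS in the controls, with 21.2, 21.1, 21.4 and 18.0 rescaled TPM in water and 9.79, 8.74 and 11.4 after DSS. The mean was 2.05-fold lower (log2 difference −0.97, pooled SD 0.14), and the groups did not overlap. The Vil1::Cre mice had 16.8, 12.2, 18.4, 22.1 and 17.9 in water and 9.43, 14.6, 10.6 and 8.54 after DSS, which is 1.62-fold lower on the means (−0.65, pooled SD 0.30). Here the groups overlapped, through water-treated Vil1::Cre mouse 2 (12.2), a male, and DSS-treated Vil1::Cre mouse 2 (14.6). Among females alone no water-treated mouse of either genotype overlapped the DSS-treated mice. DSS-treated Vil1::Cre mouse 2 was also among the 3 DSS libraries with high levels of 8 fibroblast markers (a mean log2 level of 4.41 to 4.72, against 2.87 to 3.25 in the other 4), and water-treated Vil1::Cre mouse 2 had the lowest fibroblast level of the water-treated mice (3.58, against 4.28 to 5.26). Of those 3 DSS libraries, control 1 and Vil1::Cre mouse 3 had 9.79 and 10.6 of *Tgfbr2*. DSS-treated control 3, at a fibroblast level of 3.25, had 11.4. Fibroblasts carry this receptor as well, and their part in the difference was not tested.

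*Tgfbr1* encodes the receptor kinase that phosphorylates SMAD2 and SMAD3. Its levels overlapped between the treatments in both genotypes. It had 8.23, 11.0, 7.77 and 12.8 rescaled TPM in the uninjured controls and 9.61, 8.77 and 4.66 in the DSS-treated controls (log2 difference −0.36, pooled SD 0.39). For Vil1::Cre mice the difference was 0.00 (pooled SD 0.31), and it was 0.53 with the listed total of each library set equal. Among female controls alone *Tgfbr1* was lower after DSS without overlap, as were 20.4% of genes, and 18.2% were higher. Over females of both genotypes its log2 difference was −0.41 (pooled SD 0.28), with overlap. Within each treatment its levels differed by cage, which was not tested. As deposited, the 4 males of cage a had 5.72 to 7.67 TPM and the 5 females of cage b 9.36 to 11.7, so that all mice of cage a lay below all of cage b. This was the case for 0.996% of the 11046 genes tested in water, and 0.797% were higher in cage a. After DSS both mice of cage c (5.77 and 8.72) lay below all 5 of cage d (9.07 to 13.2), as did 9.94% of genes, and 15.6% lay above. Cage and sex are the same split in the water-treated mice and cannot be told apart there.

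*Smad4*, the common partner of the receptor-activated SMADs, was higher after DSS in all mice. It had 31.8, 34.5, 29.1 and 35.6 rescaled TPM in the uninjured controls and 57.0, 65.9 and 42.0 in the DSS-treated controls. The Vil1::Cre mice had 38.4, 28.3, 27.7, 31.4 and 33.8 in water and 62.3, 52.1, 59.0 and 67.7 after DSS. The lowest DSS-treated mouse, control 3 at 42.0, was above the highest water-treated mouse at 38.4. The mean was 1.68-fold higher in the controls (log2 difference 0.71, pooled SD 0.23) and 1.89-fold higher in Vil1::Cre mice (0.90, pooled SD 0.18). Over all mice the DSS-treated mice lay wholly above the water-treated mice for 4.49% of genes. Scaled to the epithelial markers in each mouse, the log2 difference of the controls was 0.86, but control 3, which had the highest epithelial level of the DSS-treated mice, then overlapped the water-treated controls. Of the listed transcripts of *Smad4*, 1 held at least 97.8% of the gene's TPM in 6 of 7 DSS-treated mice and 75.9% in control 3. In the water-treated mice its share lay between 47.4% and 100%. Of the 31-base windows of this transcript 40.0% are found in no other annotated transcript of the gene, and of those of the other listed transcript 8.62%. For the listed transcripts of *Id1* and *Tgfbr2* this share is 2.99% and 3.63%, and each of these genes has another annotated transcript that is not listed. For *Tgfbr1*, *Tgfb1* and *Smad3* it is 50.8%, 78.4% and 86.4%.

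The receptor-activated pair was close to level across the treatments. *Smad2* had 16.6, 16.04, 17.3 and 15.0 rescaled TPM in the uninjured controls and 14.0, 17.6 and 10.3 in the DSS-treated controls (log2 difference −0.23, pooled SD 0.24). Vil1::Cre mice had 13.3, 14.9, 13.8, 10.8 and 12.7 in water and 14.2, 14.1, 14.5 and 15.4 after DSS (0.15, pooled SD 0.13). The groups overlapped in both genotypes. *Smad3* had the narrowest range of the members, from 6.30 to 9.62 in water and from 7.63 to 8.95 after DSS over all mice. Its log2 difference was 0.04 (pooled SD 0.13) in the controls and 0.10 (pooled SD 0.13) in Vil1::Cre mice. As deposited, both had a higher mean after DSS in either genotype, by 0.10 to 0.49, beside a shift of the median gene of 0.32 in the controls and 0.30 in Vil1::Cre mice.

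*Smad7*, the inhibitor induced by the signal, had 14.9, 15.3, 18.8 and 11.1 rescaled TPM in the uninjured controls and 8.82, 9.82 and 13.1 in the DSS-treated controls. The mean was 1.42-fold lower (log2 difference −0.46, pooled SD 0.28), and the groups overlapped through water-treated control 4 and DSS-treated control 3. Leaving out either of these mice, picked because they made the overlap, left none. The share of all genes lower without overlap was then 16.3% without water-treated control 4 and 26.1% without DSS-treated control 3. Among Vil1::Cre mice the mean was 1.31-fold lower (−0.34, pooled SD 0.32), with overlap, and water-treated mouse 1 had 20.3 while the other 4 had 10.3 to 12.7. With the listed total of each library set equal this difference was 0.20, so its direction depends on the scaling.

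*Id1* was lower after DSS in 6 of 7 mice than in any water-treated mouse. It had 234, 224, 275 and 155 rescaled TPM in the uninjured controls, and 259, 151, 243, 219 and 160.0 in the water-treated Vil1::Cre mice. After DSS it had 64.8, 63.8 and 155 in the controls and 80.8, 60.0, 47.7 and 59.4 in Vil1::Cre mice. The groups did not overlap in Vil1::Cre mice, where the mean was 3.33-fold lower (log2 difference −1.71, pooled SD 0.33) and 18.0% of genes were lower without overlap. In the controls the mean was 2.34-fold lower (−1.32, pooled SD 0.53), with overlap because DSS-treated control 3 (155.4) lay just above water-treated control 4 (154.7). Without DSS-treated control 3, a choice made after its value was seen, the mean over all mice was 213 in water and 62.8 after DSS, the groups did not overlap, and the share of all genes lower without overlap was 12.0%. Control 3 and Vil1::Cre mouse 1, the highest of their groups, shared cage c. As deposited, cage c had 193 and 96.2 TPM and the 5 mice of cage d 56.3 to 74.7. Of the 10899 genes tested after DSS, 15.6% were likewise higher in cage c without overlap, and 9.94% were lower. These 2 mice also had the highest epithelial marker levels of the DSS-treated mice (9.07 and 8.88, against 8.60 to 8.66). The markers of this list did not vary alike. Over the DSS-treated mice *Krt8* was at 1370 to 2344 rescaled TPM and *Epcam* at 762 to 837. The medians of *Epcam*, *Cdh1* and *Cdx2* were higher after DSS than in water, and those of the other markers of the list were lower. The water-treated mice, at epithelial levels of 8.74 to 9.13, had 151 to 275 of *Id1*. The part of epithelial content in the level of *Id1* was not tested.

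**Figure D3:**
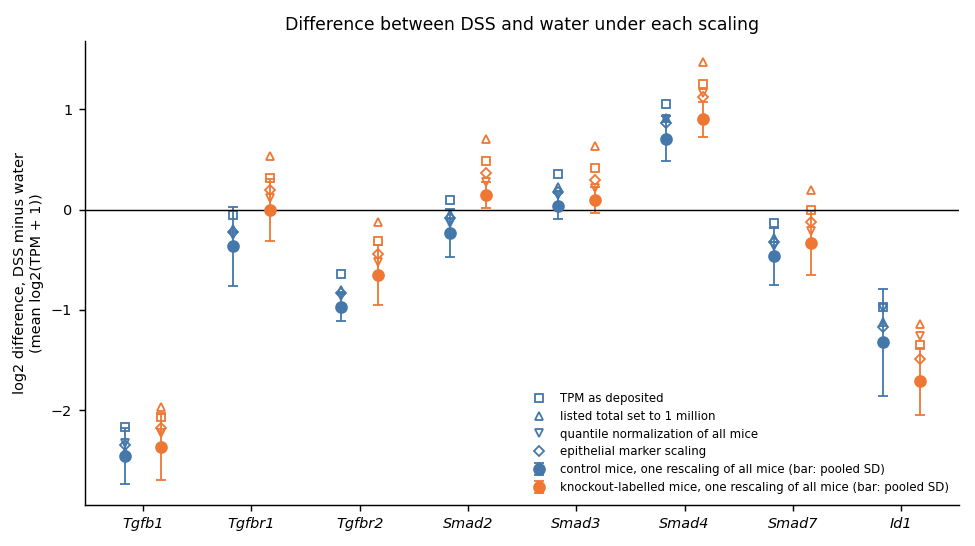
Difference between DSS-treated and water-treated mice in mean log2(TPM + 1) for each gene (vertical axis) in controls (blue) and Vil1::Cre mice (orange). Filled points are after 1 rescaling, with the pooled SD within groups as bars, and open symbols are other scalings. *Tgfb1*, *Tgfbr2* and *Id1* stay below 0 and *Smad4* above 0 under each scaling drawn, while *Tgfbr1*, *Smad2* and *Smad7* lie on both sides of 0.

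Counted together, 2 of the 8 genes were lower (*Tgfb1* and *Tgfbr2*) and 1 was higher (*Smad4*) without overlap in the controls, beside 14.0% and 10.6% of all genes. Among Vil1::Cre mice 2 were lower (*Tgfb1* and *Id1*) and 1 was higher (*Smad4*), beside 18.0% and 17.3%. The median log2 difference of the 8 was −0.41 in the controls and −0.17 in Vil1::Cre mice, where the medians of all genes were 0.01 and 0.00. As deposited, the members separated in the controls were 2 lower and 2 higher, with *Smad3* beside *Smad4*, where 8.24% and 30.9% of all genes were lower and higher. For Vil1::Cre mice they were 2 lower and 3 higher (*Smad2*, *Smad3* and *Smad4*), where 10.2% and 31.3% of all genes were.

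Ratios between members within a library do not depend on how a table was scaled, and 4 of them were taken. Of these 4, that of *Id1* to *Smad4* differed most between the treatments. *Id1* stood at 7.34, 6.49, 9.46 and 4.34 times the TPM of *Smad4* in the uninjured controls and at 6.75, 5.33, 8.78, 6.98 and 4.73 times in the water-treated Vil1::Cre mice. After DSS the ratio was 1.14, 0.968 and 3.70 in the controls and 1.30, 1.15, 0.808 and 0.879 in Vil1::Cre mice. All 7 DSS-treated mice, control 3 included, lay below all 9 water-treated mice, with a log2 difference of −2.40. The ratio of *Tgfbr2* to *Tgfbr1* was 1.40 to 2.76 in water and 0.953 to 2.45 after DSS (log2 difference −0.67), and that of *Smad7* to *Smad3* was 1.35 to 2.35 and 0.993 to 1.54 (−0.50). Both overlapped, and so did *Smad3* to *Smad2* (0.448 to 0.784 and 0.456 to 0.824, log2 difference 0.10). Between the genotypes no ratio passed the exact two-sided permutation test. Over the 4 ratios its p lay between 0.286 and 0.80 after DSS, where 3 against 4 mice allow 0.0286 at the least, and between 0.198 and 0.810 in water, where 4 against 5 allow 0.00794.

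**Figure D4:**
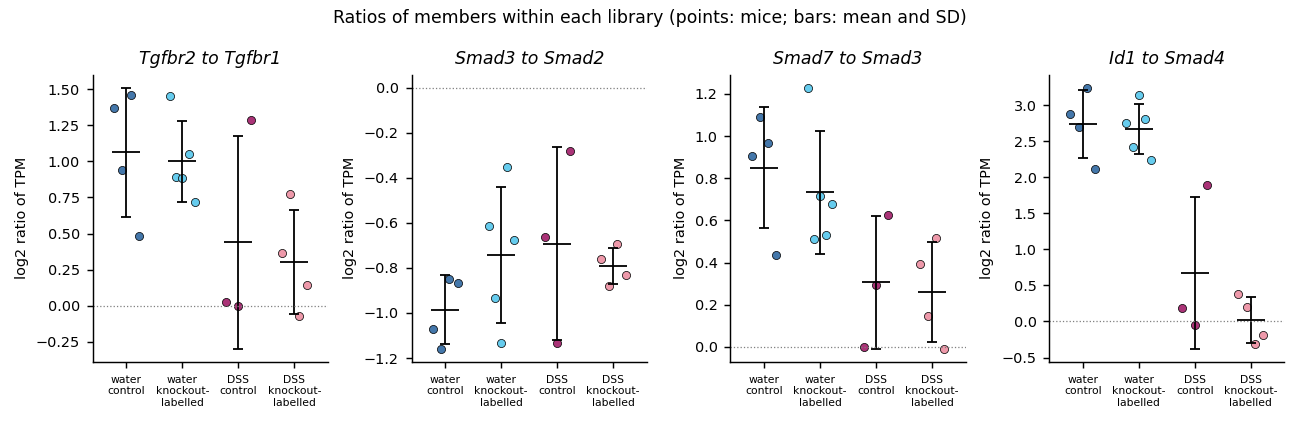
Log2 ratio of TPM between pairs of members in each mouse (points) by group, with the mean and SD as bars; the dotted line marks equal TPM. The ratio of *Id1* to *Smad4* lies between 2.12 and 3.24 in the water-treated mice and between −0.31 and 1.89 in the DSS-treated mice.

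The comparison the study was built for is that of the genotypes within a treatment. None of the 8 genes was called by limma on log2(TPM + 1) in either treatment at an adjusted p under 0.05. Of all genes, 1 of 10899 was called after DSS (0.00918%, *Tra2a*) and 1 of 11046 in water (0.00905%, *Dus2*), with 2.65% and 5.28% at an unadjusted p under 0.05. After DSS the estimated log2 fold changes (Vil1::Cre minus control) of 7 members lay between −0.04 (*Smad7*) and 0.21 (*Tgfbr1*), and that of *Id1* was −0.49 (standard error 0.36, adjusted p = 1.00). The 95% interval of *Id1*, from −1.31 to 0.34, is the widest of the 8. As deposited, *Id1* had 74.7, 72.3 and 193 TPM in the DSS-treated controls and 96.2, 71.7, 56.3 and 69.7 in Vil1::Cre mice. Without control 3 the fold change was −0.03. *Smad3*, at 9.93 ± 0.76 (n = 3) and 9.95 ± 0.61 TPM (n = 4), gave 0.00 (interval −0.29 to 0.30).

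In water 7 of the 8 log2 fold changes were below 0, between −0.29 (*Smad2*) and −0.04 (*Smad4*), and that of *Tgfb1* was 0.05. *Smad2* was the member at an unadjusted p under 0.05. Its levels were 15.5, 14.7, 15.8 and 13.7 TPM among controls and 12.4, 13.6, 13.0, 9.75 and 11.7 in Vil1::Cre mice, which all lay below every control. Such separation was found for 0.878% of the genes tested, and the opposite for 0.67%. The log2 fold change was −0.29 (standard error 0.11, 95% interval −0.55 to −0.04, adjusted p = 0.865), and the exact two-sided permutation test gave p = 0.0159, where the smallest p that 4 against 5 mice can give is 0.00794. The direction held within both cages (−0.25 in cage a, with 2 mice of each genotype, and −0.29 in cage b, with 2 and 3), and the call fails once all genes are considered. After DSS *Smad2* was at 16.1, 19.9 and 12.8 TPM among controls and 16.9, 16.8, 17.1 and 18.0 in Vil1::Cre mice (0.10, standard error 0.16, adjusted p = 1.00). The other 7 members overlapped between genotypes in both treatments (after DSS 1.55% of genes were lower and 2.13% higher without overlap), with exact p between 0.343 and 0.914 after DSS and between 0.190 and 0.794 in water.

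**Figure D5:**
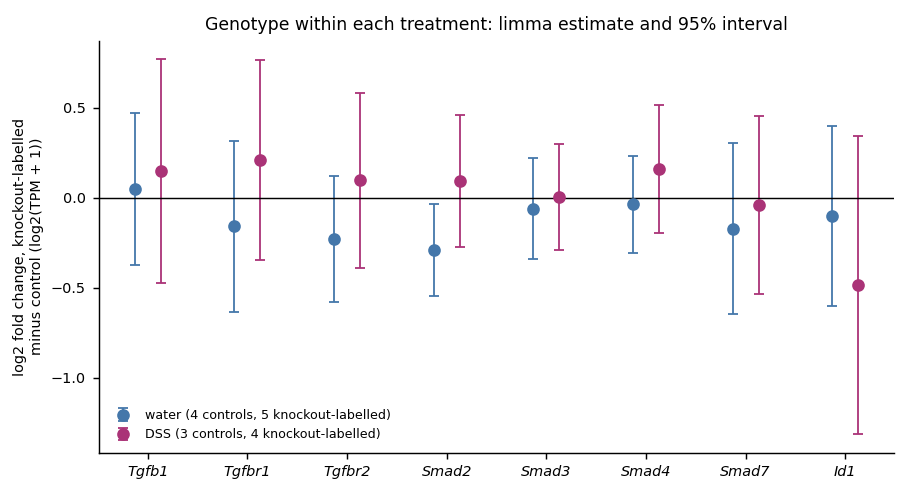
Log2 fold change of Vil1::Cre mice over the controls (vertical axis, log2(TPM + 1) scale) for each gene in water (blue) and after DSS (purple), as limma's estimate with its 95% interval. The interval of *Smad2* in water ends at −0.04 and each of the other 15 intervals covers 0.

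Around the 8 members, 84 other genes of the TGF-beta and BMP pathways were listed by role, of which 56 had a mean of at least 1 TPM over all mice. In the controls 17 of the 56 were lower and 3 higher after DSS without overlap (14.0% and 10.6% of all genes), and in Vil1::Cre mice 12 and 12 (18.0% and 17.3%). Over all mice 9 were lower and 2 higher, beside 7.04% and 4.49% of all genes. Between genotypes none was called in either treatment. At an unadjusted p under 0.05 there were 2 of 62 after DSS and 4 of 56 in water.

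The other *Id* genes differed between treatments in the same direction as *Id1*. *Id2* had 53.4, 73.6, 52.6 and 58.8 rescaled TPM in the uninjured controls and 13.5, 10.3 and 9.68 in the DSS-treated controls (log2 difference −2.32). *Id3* had 85.9, 83.9, 91.6 and 70.4 and then 22.7, 13.5 and 30.3 (−1.92). Both were lower in all 7 DSS-treated mice than in any water-treated mouse, DSS-treated control 3 included. *Hes1*, a target shared with Notch, was at 36.7 ± 9.65 (n = 4) and 41.3 ± 9.00 (n = 3), with overlap. Of the 10 BMP targets listed, which include *Id1*'s relatives, 5 were measured at this level, with 2 lower and 0 higher in the controls (14.0% and 10.6% of all genes) and 3 lower and 0 higher in Vil1::Cre mice (18.0% and 17.3%).

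Among the ligands, *Bmp4*, made in large part by stromal cells, was 20.6 ± 8.05 rescaled TPM in the uninjured controls (n = 4) and 3.20 ± 1.40 in the DSS-treated controls (n = 3). *Bmp2*, which differentiated colonocytes express, was 19.2 ± 2.05 and 8.69 ± 2.07. Both were lower in all DSS-treated mice. *Gdf15*, a stress-induced member of the family, was 39.1 ± 8.03 and 26.2 ± 3.59 without overlap in the controls, but overlapped in Vil1::Cre mice. *Bmp1*, a protease, was 4.41 ± 1.07 and 1.39 ± 0.43, with overlap in Vil1::Cre mice. Of the 6 ligand genes measured, 4 were lower and 0 higher in the controls (14.0% and 10.6% of all genes), with a median log2 difference of −0.81. In Vil1::Cre mice 2 were lower and 1 was higher (*Bmp3*, log2 difference 0.87), with a median of −0.23 (18.0% and 17.3% of all genes). In the DSS-treated mice *Bmp4* was highest in control 1 and Vil1::Cre mice 2 and 3 (4.76, 4.95 and 7.87, against 0.96 to 2.78 in the other 4), which are the 3 with high fibroblast markers. The part of stromal cells in it was not tested.

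Of the genes that hold or release the latent ligand, or bind it outside the cell, *Thbs1* was the most abundant at 184 ± 55.3 and 129.98 ± 12.7 rescaled TPM in the uninjured and DSS-treated controls, with overlap. *Furin*, the protease that cleaves the TGF-beta precursor, was 20.9 ± 2.81 and 12.0 ± 5.48, with overlap in the controls and none in Vil1::Cre mice. *Ltbp3*, a latent TGF-beta binding protein, was 4.55 ± 0.96 and 0.83 ± 0.32, and *Fstl1*, a secreted glycoprotein of stromal cells, 27.8 ± 10.8 and 9.07 ± 5.85. Those 2 were the genes of the 8 measured that were lower without overlap in the controls, and both overlapped in Vil1::Cre mice, where 1 was lower (*Furin*) and 1 higher (*Itgb6*). The shares of all genes were 14.0% lower and 10.6% higher in the controls and 18.0% and 17.3% in Vil1::Cre mice. *Fstl1* was at 15.8, 16.7 and 21.8 in the 3 DSS libraries with high fibroblast markers and at 4.07 to 6.59 in the other 4, and *Ltbp3* at 1.12, 2.14 and 2.56 and at 0.49 to 0.87. The part of stromal cells in these levels was not tested.

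The other receptors went both ways. *Acvrl1*, a type I receptor known from endothelial cells, was 10.9 ± 2.93 rescaled TPM in the uninjured controls and 2.85 ± 1.42 in the DSS-treated controls, and was lower in all 7 DSS-treated mice. *Tgfbr3*, the co-receptor betaglycan, was 4.43 ± 0.99 and 1.77 ± 1.25, with overlap in Vil1::Cre mice. It was at 3.06 to 5.23 in the 3 DSS libraries with high fibroblast markers and at 0.69 to 1.06 in the other 4. The activin receptor *Acvr1b* was higher in all DSS-treated mice, at 14.3 ± 1.79 and 20.8 ± 0.28 in the controls. The BMP receptor *Bmpr1a* had 9.86 ± 0.76 and 17.9 ± 7.47, where DSS-treated control 3 (9.28) was the only DSS-treated mouse within the range of the water-treated mice. The 7 endothelial markers had a mean log2 level of 1.15 to 1.97 in water and 0.86 to 1.73 after DSS, with 0 of 7 separated. Of the 8 receptor genes measured, 2 were lower and 1 was higher in the controls, beside 14.0% and 10.6% of all genes. In Vil1::Cre mice 1 was lower and 4 were higher, beside 18.0% and 17.3%.

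Of the other SMADs and their partners, the BMP transducer *Smad5* was higher in all DSS-treated mice, at 7.06 ± 0.68 rescaled TPM and 11.2 ± 0.79 in the controls. *Smad1*, its close relative, was 12.0 ± 1.31 and 14.1 ± 1.75 with overlap. The co-repressor *Skil* was 17.8 ± 3.58 and 8.08 ± 1.94, without overlap in the controls and with overlap in Vil1::Cre mice, and *Tgif1* was 27.3 ± 10.0 and 29.3 ± 11.0. Of the 10 genes of this list measured, 1 was lower and 1 higher in the controls, beside 14.0% and 10.6% of all genes. In Vil1::Cre mice 1 was lower and 3 were higher, beside 18.0% and 17.3%. Among the inhibitors and turnover factors, *Strap* had 35.1 ± 1.80 and 44.0 ± 9.05 and *Fkbp1a*, which guards the type I receptor, 44.6 ± 12.6 and 60.7 ± 7.23, both with overlap in the controls. The phosphatase *Ppm1a*, at 0.70 ± 0.16 and 1.24 ± 0.27, was the 1 of 10 measured inhibitors that was higher without overlap in the controls, and 0 were lower (10.6% and 14.0% of all genes). Of the same 10 in Vil1::Cre mice, 3 were higher (*Pmepa1*, *Strap* and *Usp9x*) and 1 was lower (*Stub1*, log2 difference −0.60), beside 17.3% and 18.0% of all genes.

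Of 13 TGF-beta target genes measured, 7 were lower after DSS in the controls without overlap and 0 were higher, with a median log2 difference of −1.003, beside 14.0% and 10.6% of all genes and an all-gene median of 0.01. In Vil1::Cre mice 4 were lower and 1 was higher (*Pmepa1*), with a median of −0.19, beside 18.0% and 17.3% of all genes. The lists share genes. Among the 7 lower in the controls were *Col1a1*, also one of the fibroblast markers, and *Skil*, also counted with the SMAD partners. *Tagln*, also a muscle marker, overlapped. *Tgfbi*, an extracellular matrix protein, was 67.1 ± 1.15 rescaled TPM and 5.98 ± 4.79, and *Ccn2*, a matricellular protein, 22.9 ± 5.53 and 4.26 ± 2.94. *Cdkn1a*, the cell-cycle inhibitor p21, was 163 ± 23.6 and 67.5 ± 17.2. All 3 were lower in every DSS-treated mouse than in any water-treated mouse. *Ccn1* was 118 ± 32.6 and 57.1 ± 6.04 in the controls, with overlap in Vil1::Cre mice. In the DSS-treated mice *Tgfbi* was at 11.5 to 13.2 in the 3 with high fibroblast markers and at 2.59 to 4.13 in the other 4, and the part of stromal RNA in these targets was not tested. Macrophages also express *Tgfbi*, and the part of the leukocytes in it was not tested.

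Within the groups, members differed in how they varied from mouse to mouse. With group means removed, *Tgfb1* and *Smad2* varied in opposite directions (Pearson r = −0.83 over 16 mice, −0.84 in water and −0.83 after DSS), the strongest of the 28 pairs of members. *Tgfb1* and *Tgfbr2* varied together (0.68), and *Tgfbr1* and *Id1* in opposite directions (−0.66). *Id1* followed the mean of the 9 epithelial markers (0.87, with 0.71 in water and 0.98 after DSS), as did *Smad7* less closely (0.71), and *Tgfbr1* ran against it (−0.81). *Tgfbr2* followed the endothelial (0.73) and fibroblast markers (0.65). The points share libraries and their composition, so these values are descriptions.

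Of 6220 genes averaging 5 TPM or more in both treatments, those that varied most like each member were named. They were picked as the highest r among 6220 genes in the same 16 mice, so their r is raised by the selection. How high r would reach among unrelated genes was not tested, so they are not shown to be partners of the members. Whether the named genes share a function more often than other genes was not tested either. For *Id1* these were *Itpr3*, a calcium release channel (r = 0.95), and *Krt8*, the keratin that is also one of the epithelial markers (0.95). For *Tgfb1* they were the kinase gene *Camk1* (0.91) and *Maged2* (0.90), for *Tgfbr1* *Plekha3* (0.94) and the RNA helicase gene *Ddx5* (0.93), and for *Tgfbr2* the chemokine scavenger receptor gene *Ackr3* (0.83) and the G protein gene *Gna12* (0.81). *Smad2* varied most like *Mphosph10* (0.94) and *Mak16* (0.91) and *Smad4* most like *Utp20* (0.88), 3 genes known for ribosome biogenesis, with *Gm11361* next for *Smad4* (0.85). For *Smad3* they were *Sertad2* (0.84) and *Ubr4* (0.82, but 0.28 after DSS), and for *Smad7* *Top3b* and *Hexim1* (0.84 and 0.83).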

How the data were processed

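Stranded libraries of EpCAM+ cells were sequenced as single reads of 75 bases, and the authors quantified them with kallisto and sleuth. The deposited values are TPM per transcript and mouse in 2 tables, each scaled apart, on mm10 per the labels. From the values, APPRIS principal transcripts are listed alone, so the TPM of 1 mouse sum to 487469 at the least and 861109 at the most. Of 29373 lines in a table, 385 repeated another and were dropped. In the same tables the authors give, per transcript, the estimated counts as natural log values averaged over mice, used here to describe depth, and their own fold changes and p-values, which were not used.

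TPM was summed per gene symbol over unique transcripts. Within each treatment the genotypes were tested with limma 3.58.1 (R 4.3.3, variance trend) on log2(TPM + 1), a scale that understates the change of low genes. Genes averaging 1 TPM or more entered, p-values were adjusted by Benjamini-Hochberg over all of them, and single genes were also tested by an exact permutation test, two-sided, on mean TPM. For levels across treatments all mice were rescaled by median-of-ratios factors (0.905 to 0.940 in water, 1.13 to 1.24 after DSS). On simulated data limma recovered 0% of the genes given a log2 change of 0.5 and 30.5% of those given 1 after DSS (10899 genes), and 0% and 51% in water (11046 genes). Each library is a different mouse by the labels, p-values measure the spread between these mice, and their number limits the precision. Replicate numbers come from the labels and name different animals. The members and gene lists were chosen with earlier results of these data known. All members are named. Of each other pathway list the 2 most abundant genes are named, with up to 2 in each direction with the largest difference among those whose controls do not overlap, and of each member the 2 genes most alike. *Bmp3*, *Itgb6*, *Pmepa1*, *Usp9x*, *Stub1*, *Col1a1* and *Tagln* were named after their values were seen. Alternatives were other scalings, pseudocounts and filters, cage as a covariate, a replicate block, all groups in one fit, females alone and each mouse left out. Tables and figures were made in Python 3.11.15 with numpy 2.4.6, pandas 2.3.3 and, for drawing, matplotlib 3.10.9.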

Additional observations from a re-analysis of the deposited data

Results flagged for a closer look

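In 24 groups of 4 or 5 mice, the mouse farthest from the rest was compared with the spread of its group by Dixon's ratio, which chance alone exceeds in about 1 of 20 groups, and 2 were exceeded. *Tgfbr2* in water-treated control 4 was 16.4 TPM, where the nearest of the other 3 had 19.4. *Smad7* in water-treated mouse 1 labelled knockout was 19.0 TPM, where the nearest of the other 4 had 11.7. The genotype estimates of *Smad2* had opposite signs in the 2 treatments. Its log2 fold change was −0.29 in water, where all 5 mice labelled knockout lay below the control mean. After DSS it was 0.10 (standard error 0.16), where all 4 lay above the control mean. Without DSS-treated control 3 the estimate after DSS was −0.06, so its sign rests on that mouse. The difference between the estimates of the 2 treatments was not tested.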

How the results depend on the processing

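After DSS the number of genes called by limma was 0, in place of 1, without a filter on low values (545 genes at an unadjusted p under 0.05), with a pseudocount of 0.1 (277) and with a replicate block (169), and 0 to 3 with 1 mouse left out. In water it was 3 with all 4 groups in one fit, 4 without a filter, 0 with a mean of at least 5 TPM (373 at an unadjusted p under 0.05), with a pseudocount of 0.1 (558) and with a replicate block (623), and 1 to 2 with 1 mouse left out. The replicate numbers do not pair the mice: same-numbered deviations correlated at −0.20, −0.03 and −0.16 after DSS and at 0.03, −0.08, 0.09 and 0.09 in water. No member was called under the block, in which *Smad3* after DSS was −0.00621 and *Smad7* 0.0355. The fold change of *Smad3* after DSS also turned, to −0.00336 with rescaling within the table and −0.00779 with all groups in one fit. With the listed total set equal, *Smad7* after DSS was 0.0809 and *Tgfb1* in water −0.18.

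Leaving out 1 mouse, the log2 fold changes after DSS lay between −0.0259 and 0.42 for *Tgfb1*, −0.0429 and 0.37 for *Tgfbr1*, −0.0509 and 0.23 for *Tgfbr2*, −0.0564 and 0.24 for *Smad2*, −0.0550 and 0.0428 for *Smad3*, and −0.16 and 0.15 for *Smad7*. In water they lay between −0.0881 and 0.17 for *Tgfb1*, −0.12 and 0.00543 for *Smad3*, −0.11 and 0.00622 for *Smad4* and −0.27 and 0.00815 for *Id1*. The genotype differences of the log2 ratios lay after DSS between −1.02 and −0.05 (*Id1* to *Smad4*), −0.32 and 0.11 (*Smad3* to *Smad2*), −0.20 and 0.12 (*Smad7* to *Smad3*) and −0.36 and 0.29 (*Tgfbr2* to *Tgfbr1*). In water the ranges were −0.27 to 0.11, 0.15 to 0.34, −0.26 to −0.04 and −0.26 to 0.0696 in the same order.

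Of the members without overlap between treatments, the controls had 2 higher as deposited (30.9% of all genes), and 4 lower with 0 higher when scaled to epithelial markers (11.8% and 7.75%). With females alone the controls had 3 lower (20.4%), *Tgfbr1* among them, and 1 higher (18.2%). With 1 mouse left out they had 2 to 4 lower and 1 higher: 4 lower without DSS-treated control 3 (26.1% of all genes) or water-treated control 4 (16.3%) and 3 without DSS-treated control 2 (15.2%). The Vil1::Cre mice had 3 higher as deposited (31.3%), 2 by rank (25.2%), by quantile normalization (25.4%) or with females alone (21.7%), 1 lower and 3 higher with the listed total set equal (6.73% and 35.04%), and 2 to 3 lower and 1 to 2 higher with 1 mouse left out (3 lower without water-treated or DSS-treated Vil1::Cre mouse 2, and 2 higher without the former). With females alone the Vil1::Cre mice also had 3 lower (23.1%). Over all mice 2 were lower with females alone (10.8%) and 2 without DSS-treated control 3 (12.0%), both added after the data were seen. The causes of these shifts were not tested. No counting error is given, since TPM keeps no depth.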
